A study of Mus musculus with 6 samples.

Results

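Fibro-adipogenic progenitors are mesenchymal cells that lie between the fibres of skeletal muscle. They are recognised by the PDGF receptor gene Pdgfra, support muscle stem cells during repair, and can give rise to matrix-producing fibroblasts or to fat cells. In resting tissue they are commonly described in a pair of states, an adventitial one marked by Pi16 and Dpp4 and an interstitial one marked by genes such as Smoc2, Hsd11b1 and Cxcl14. The 10 markers described here were chosen by name as mesenchymal progenitor markers of muscle: Pdgfra, Cd34, Ly6a, Dpp4, Pi16, Smoc2, Hsd11b1, Clec3b, Dpt and Cxcl14. All 10 were found by gene identifier among the 49315 genes of the count tables, and all 10 passed the filter on low counts. Cd34, Hsd11b1 and Dpt lie on chromosome 1 and Pi16 and Smoc2 on chromosome 17, while Dpp4, Pdgfra, Clec3b, Cxcl14 and Ly6a lie on chromosomes 2, 5, 9, 13 and 15.

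The RNA came from whole gastrocnemius, the large calf muscle, of mice aged 3 months on a mixed C57BL/6 129 background. In 3 libraries, labelled mKO, Hnrnpu had been knocked out specifically in muscle, and 3 libraries were WT. Hnrnpu encodes a nuclear RNA-binding protein. The Cre line, the deleted exons and whether WT mice carried a floxed allele or a Cre are not given in the labels. Nor do these say that each library is a separate animal, so every p-value here refers to spread among libraries, which may be technical.

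Library totals lay between 32108684 and 38095211 counts in mKO and between 34871043 and 42344238 in WT. Hnrnpu, counted over all its exons, averaged 208 ± 2.92 CPM in mKO and 239 ± 7.59 CPM in WT (SD, n = 3 each; log2 change -0.20, edgeR adjusted p = 0.147), so its count does not check the labels. Fibre genes marked the tissue as muscle in both groups: 9 of them summed to 50124 to 57981 CPM in mKO and to 116967 to 136078 CPM in WT. CPM are counts per 1e+06 of the library size after scaling by TMM, a method that sets the bulk of genes equal between libraries. The TMM factors themselves differed between groups, from 1.15 to 1.20 in mKO and from 0.845 to 0.859 in WT. The choice of scaling therefore bears on every direction below, and for the markers and the gene lists the counts with library totals are given beside those with TMM.

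Smoc2 and Hsd11b1 were lower in mKO than in WT muscle, and no difference was detected for the other 8 progenitor markers. Of the 10 markers, 2 fell and none rose at an edgeR adjusted p under 0.05. Over all 16650 genes tested, 37.0% changed, 18.9% falling and 18.2% rising, so the count of markers that fell is near the background and the count that rose is below it. At an unadjusted edgeR p under 0.05, 1 further marker, Ly6a, stood out (log2 change 0.43, edgeR adjusted p = 0.0964), and DESeq2 and limma-voom also called no marker higher. The median log2 change of the markers was -0.01, beside 0.02 for all genes tested. In whole tissue, fewer progenitors and less of a transcript in each progenitor cannot be told apart.

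**Figure D1:**
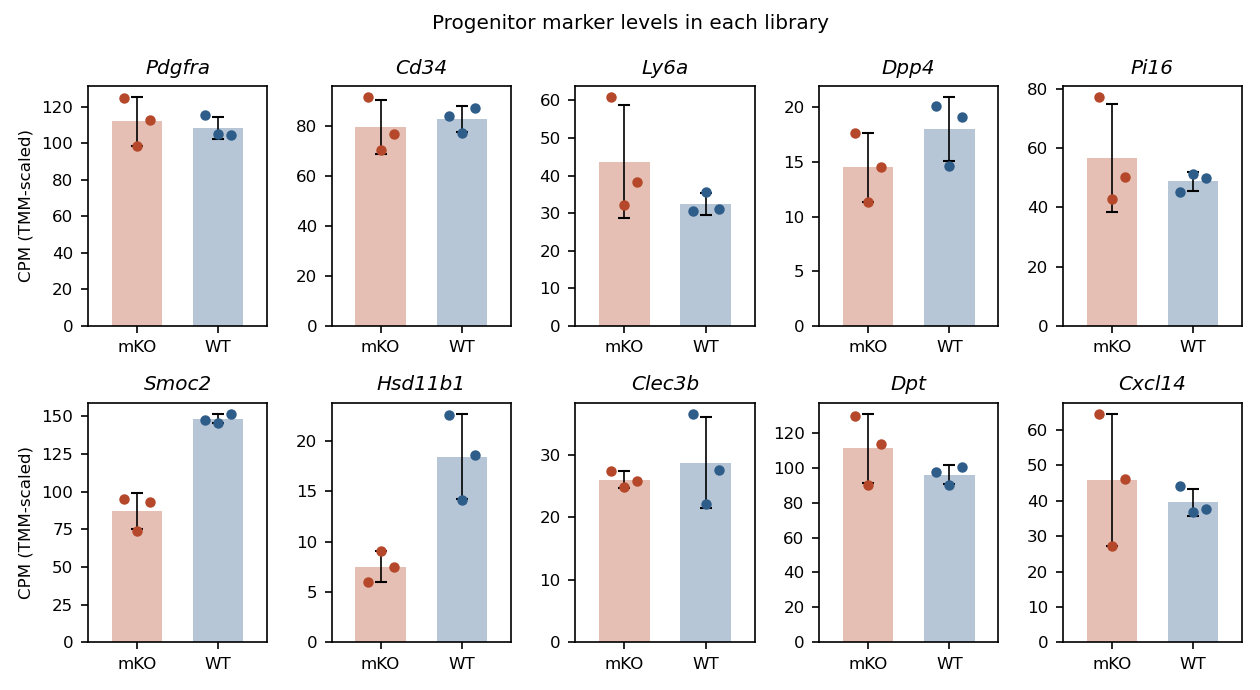
CPM (TMM-scaled) of each progenitor marker. Points are the 3 mKO and 3 WT libraries in replicate order, bars are group means and error bars are the SD. The mKO points lie below all WT points for Smoc2 (73.6 to 95.0 CPM in mKO, 146 to 151 CPM in WT) and Hsd11b1, and the groups overlap for the other markers.

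Hsd11b1 showed the largest fall among the markers. It encodes the enzyme that regenerates active glucocorticoid inside cells. The mKO replicates 1 to 3 had 6.02, 9.07 and 7.45 CPM, against 22.6, 14.1 and 18.6 CPM in the WT replicates. Every mKO library was below every WT library. Such a lack of overlap, in either direction, was seen for 49.3% of all genes tested, and for 2 of the 10 markers, Hsd11b1 and Smoc2. The log2 fold change was -1.29 (SE 0.19, 95% interval -1.71 to -0.88, edgeR adjusted p = 0.000212), or 2.45-fold lower in mKO. The gene spans chromosome 1 from 193221634 to 193264075 on the minus strand of GRCm38. The protein-coding gene Lamb3 overlaps this span on the opposite strand but shares no exon base with it, and Lamb3 averaged 5.45 ± 0.355 CPM in mKO and 5.10 ± 0.235 CPM in WT (SD, n = 3 each).

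The upstream sequences of Hsd11b1, which had the largest change, and of Pdgfra, the defining receptor gene that did not pass the test, are shown to set both genes side by side. Each is the 250 bases before the RefSeq start in GRCm38.p6, in the direction of transcription. For Hsd11b1 it is chr1:193242361-193242610 on the minus strand, inside the longer span that GENCODE gives the gene, and for Pdgfra it is chr5:75152001-75152250 on the plus strand. The motif of the TATA box (TATAA), that of the CCAAT box (CCAAT) and that of the GC box (GGGCGG) were searched on both strands, and no match overlapped another. Capitals mark the 1 match, a CCAAT whose first base lies 72 bases before the start of Hsd11b1.
Hsd11b1: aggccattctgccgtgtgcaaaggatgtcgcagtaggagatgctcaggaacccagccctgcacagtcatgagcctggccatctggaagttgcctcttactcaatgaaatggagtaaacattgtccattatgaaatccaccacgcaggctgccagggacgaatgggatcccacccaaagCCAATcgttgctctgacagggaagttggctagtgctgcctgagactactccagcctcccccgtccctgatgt
Pdgfra: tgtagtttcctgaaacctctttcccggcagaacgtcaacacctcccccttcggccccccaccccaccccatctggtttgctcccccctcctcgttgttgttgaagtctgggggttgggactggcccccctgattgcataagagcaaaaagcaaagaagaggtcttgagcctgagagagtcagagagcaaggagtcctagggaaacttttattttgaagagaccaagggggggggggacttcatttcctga

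Among 32851 promoter windows of the RefSeq table, 33.8% held the CCAAT motif, 22.8% the TATA box motif and 32.7% the GC box motif. Windows were found for 7 of the 10 markers. The CCAAT motif occurred in 2 of them, Hsd11b1 and Pi16, and the TATA box motif in 1, that of Dpp4. The G+C content was 54.4% for both printed windows, against a median of 52.4% over the table. A match to such letters is a description of the window only.

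Smoc2, a secreted calcium-binding matrix protein gene of interstitial fibroblasts, was the other marker that fell. It had 95.0, 73.6 and 92.9 CPM in mKO replicates 1 to 3, against 147, 146 and 151 CPM in WT replicates 1 to 3. The groups were far apart relative to their spread, with means of 87.2 ± 11.8 CPM in mKO and 148 ± 3.02 CPM in WT (SD, n = 3 each). The log2 fold change was -0.76 (SE 0.12, 95% interval -1.02 to -0.50, edgeR adjusted p = 0.000339), or 1.70-fold lower in mKO. With library totals, the mKO values were still below all WT values, but the log2 change shrank to -0.30 and the call ended (edgeR adjusted p = 0.0521). The gene spans chromosome 17 from 14279506 to 14404790 on the plus strand of GRCm38. No annotated gene shares an exon base with it, and none of its 3923 windows of 50 bases occurred in transcripts of another gene.

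Cxcl14, a chemokine gene of the same interstitial state, did not follow Smoc2 and Hsd11b1. It had 64.5, 27.1 and 46.0 CPM in mKO, against 44.1, 36.9 and 37.7 CPM in WT, so the mKO libraries reached above and below the whole WT range. The log2 change was 0.21 (SE 0.23, 95% interval -0.28 to 0.71, edgeR adjusted p = 0.498). Its value rested on single libraries: it was 0.49 (edgeR adjusted p = 0.0297) without mKO replicate 2 and -0.11 (edgeR adjusted p = 0.696) without mKO replicate 1.

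The markers of the adventitial state did not pass the test. Pi16, a secreted peptidase inhibitor gene, had 77.0, 42.6 and 50.1 CPM in mKO, against 45.1, 51.2 and 49.8 CPM in WT. Only mKO replicate 1 lay outside the WT range by a wide margin, and the log2 change was 0.22 (SE 0.18, 95% interval -0.17 to 0.60, edgeR adjusted p = 0.373). Dpp4, which encodes a cell-surface peptidase, had 17.6, 11.4 and 14.6 CPM in mKO, against 20.1, 14.7 and 19.2 CPM in WT. Here 2 mKO libraries were below all WT libraries and 1 was among them. The log2 change was -0.31 (SE 0.17, 95% interval -0.68 to 0.06, edgeR adjusted p = 0.181).

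Pdgfra and Cd34, the surface proteins most used to identify or sort these cells, did not pass the test. Pdgfra, on chromosome 5 from 75152292 to 75198215 on the plus strand, had 125, 98.3 and 113 CPM in mKO and 115, 105 and 105 CPM in WT. Its log2 change was 0.05 (SE 0.12, 95% interval -0.21 to 0.30, edgeR adjusted p = 0.782). Cd34, a sialomucin gene that endothelial cells express as well, had 91.6, 70.5 and 76.7 CPM in mKO, against 84.1, 77.2 and 87.5 CPM in WT (log2 change -0.06, SE 0.12, 95% interval -0.32 to 0.20, edgeR adjusted p = 0.740). For both genes WT values lay inside the mKO range, and the intervals exclude a change of 1 on the log2 scale in either direction.

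Ly6a, which encodes the surface antigen Sca-1, had the largest positive change of the markers without passing the test. It had 60.8, 32.2 and 38.2 CPM in mKO, against 30.6, 35.7 and 31.1 CPM in WT. The groups overlapped, and mKO replicate 1 was far above the rest. The log2 change was 0.43 (SE 0.19, 95% interval 0.02 to 0.84, edgeR adjusted p = 0.0964). It was 0.12 without mKO replicate 1 (edgeR adjusted p = 0.554) and 0.62 without mKO replicate 2 (edgeR adjusted p = 0.0185). Its count is also less certain than that of the other markers, since 10% of the 906 windows of 50 bases in its longest transcript occurred in transcripts of other genes, led by its paralogs Ly6c1 and Ly6i. The share was 4.46% for Pi16, through an antisense gene, 1.86% for Cd34, 0.206% for Pdgfra and 0 for the remaining 6 markers. Exons on the opposite strand overlap those of Pdgfra by 456 bases for Gm42802 and by 166 for Gm42803. Such exons overlap those of Cd34 by 148 bases, Dpp4 by 232 and Pi16 by 222. Reads there cannot be assigned by strand. Sca-1 is also made by endothelial and T cells. Among T cell genes, Cd3e had at most 1 count in an mKO library and at most 4 in a WT library. Cd4 had 29, 21 and 13 counts in mKO, against 8, 3 and 3 in WT, and Cd8a had 2, 2 and 6 in mKO, against 0 in each WT library. The part of these cells in the level of Ly6a was not tested.

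Dpt and Clec3b, both broad fibroblast markers, did not pass the test. Dpt, which encodes the collagen-binding protein dermatopontin, had 129, 90.1 and 114 CPM in mKO and 97.7, 89.9 and 100.4 CPM in WT (log2 change 0.21, SE 0.13, 95% interval -0.08 to 0.50, edgeR adjusted p = 0.243). Clec3b, which encodes the plasminogen-binding protein tetranectin, had 27.4, 24.8 and 25.9 CPM in mKO and 36.5, 22.1 and 27.6 CPM in WT. All mKO values of Clec3b lay within the WT range, and its log2 change was -0.14 (SE 0.16, 95% interval -0.48 to 0.20, edgeR adjusted p = 0.516).

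Scaling by library totals turned the picture for the markers that had not passed. With totals, 6 of the 10 rose and 1, Hsd11b1, fell, but the median log2 change of all genes was then 0.49, against 0.02 with TMM, and 55.8% of all genes were called. The 6 were Pdgfra (log2 0.51), Cd34 (0.41), Ly6a (0.90), Pi16 (0.69), Dpt (0.68) and Cxcl14 (0.68), with edgeR adjusted p from 0.00128 to 0.0250. Cd34, Dpp4 and Clec3b changed sign between the scalings. Hsd11b1 fell with both, by 1.29 on the log2 scale with TMM and by 0.83 with totals (edgeR adjusted p = 0.00264). Muscle fibre genes made up less of the mKO libraries, as the summed levels above show, and the part of this in the direction with totals was not tested.

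**Figure D2:**
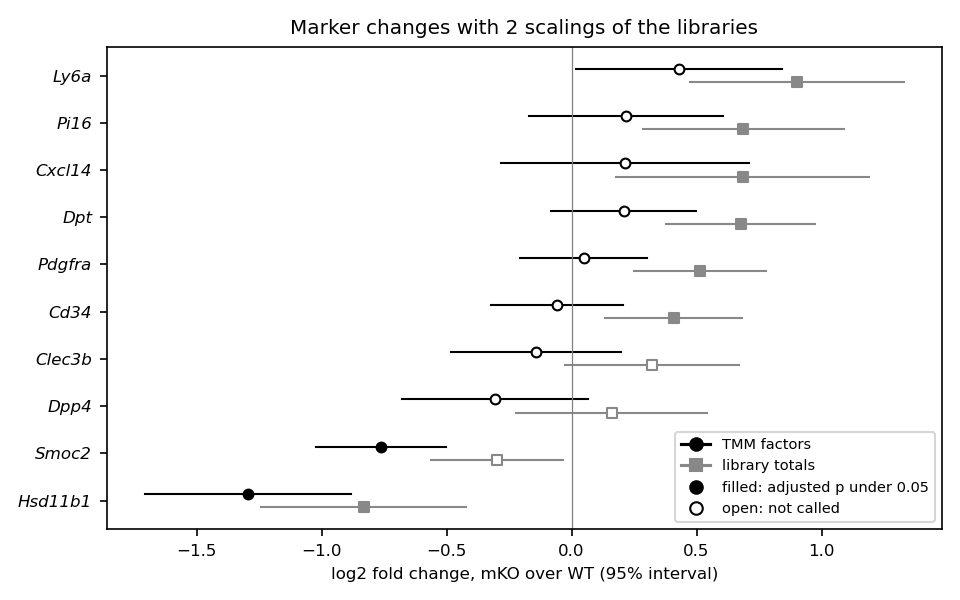
Log2 fold change of each marker, mKO over WT, with its 95% interval, from TMM-scaled libraries (black circles) and from library totals (grey squares). Filled symbols passed an edgeR adjusted p of 0.05. Each grey value lies to the right of its black one, and Hsd11b1 is filled below 0 with both scalings.

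Ratios between markers inside a library do not depend on scaling, but the test of the 9 ratios to Pdgfra could not pass at 0.05. For every 100 counts of Pdgfra there were 76.3, 74.9 and 82.2 counts of Smoc2 in mKO, against 128, 139 and 145 in WT. The same ratio for Hsd11b1 was 4.83, 9.23 and 6.59 in mKO, against 19.6, 13.5 and 17.8 in WT. These were the 2 of 9 ratios in which the groups did not overlap, both with mKO below; 22.6% of all other genes had a ratio to Pdgfra placed that way, so this count is at the background. The exact two-sided permutation p was 0.1 for each, the smallest that 3 against 3 libraries allow, and 0.45 adjusted over the 9 ratios. No ratio could therefore have passed at 0.05, and the test cannot decide whether any ratio differed. Counts of Cd34 per 100 of Pdgfra were 73.5, 71.8 and 67.9 in mKO and 73.0, 73.5 and 83.6 in WT, and those of Dpt 104, 91.6 and 101 in mKO and 84.8, 85.6 and 95.9 in WT, with overlap in both cases.

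Most markers moved together between the mKO libraries, and less so between the WT libraries. The same count was not made for all genes, so shifts of whole libraries are not set apart. mKO replicate 1 was above its group mean for 9 of 10 markers, the exception being Hsd11b1, mKO replicate 2 for 1 of 10, again Hsd11b1, and mKO replicate 3 for 6. In WT the numbers were 7, 2 and 6 of 10 for replicates 1 to 3, the 2 being Ly6a and Pi16. Median deviations on the log2 scale were 0.22, -0.26 and 0.01 in mKO replicates 1 to 3. They were 0.06, -0.09 and 0.03 in WT replicates 1 to 3. Summed over the 10 markers, the mKO libraries had 694, 480 and 578 CPM, so that all of the WT libraries, with 643, 592 and 628 CPM, lay between them. The summed level of 10 macrophage genes had the same library order in mKO, with 989, 591 and 727 CPM, against 342, 301 and 283 CPM in WT. The order was not particular to macrophage genes. Sums of the other adventitial, interstitial and pan-fibroblast genes described below also had it in mKO. The sum of the PDGF genes had it too, at 191, 159 and 173 CPM. That sum includes the marker Pdgfra, with 125, 98.3 and 113 CPM, so it is not a separate comparison. Sums of endothelial, pericyte and smooth muscle, and activated fibroblast genes did not. The part of macrophages in the marker levels was not tested. Smoc2 and Hsd11b1 were called whichever 1 library was left out, with log2 changes of -0.83 to -0.65 for Smoc2 and -1.46 to -1.13 for Hsd11b1 over the 6 fits and edgeR adjusted p of at most 0.00216.

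**Figure D3:**
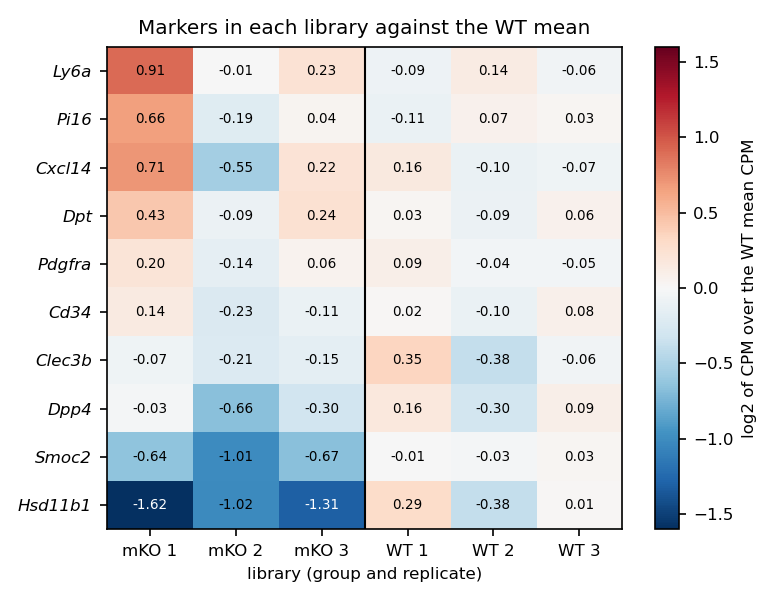
Log2 of the CPM of each marker in each library over the WT mean CPM of that marker, with the 3 mKO libraries on the left and the 3 WT libraries on the right. The bottom rows, Smoc2 and Hsd11b1, are negative in all mKO libraries, and mKO replicate 1 holds the highest values of Ly6a, Pi16, Cxcl14, Dpt, Pdgfra and Cd34.

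Per length, the markers ranged over more than 10-fold, and their order differed between groups. On the scale of CPM per kilobase of listed exon, Dpt was highest in mean in both, with 64.4 ± 11.4 in mKO and 55.7 ± 3.15 in WT (SD, n = 3 each). Smoc2 averaged 30.8 ± 4.16 in mKO and 52.3 ± 1.07 in WT. The lowest Dpt value in WT lay within the Smoc2 range, while in mKO the ranges of Dpt and Smoc2 were apart and Smoc2 overlapped Ly6a. Next in WT came Clec3b at 29.0 and Ly6a at 26.9, which overlapped, then Cxcl14 at 21.7, below Ly6a in every library. Pi16 at 12.2, Cd34 at 11.4 and Pdgfra at 10.8 overlapped each other in WT. In mKO the means were 36.3 for Ly6a, 26.2 for Clec3b, 25.2 for Cxcl14, 14.2 for Pi16, 11.2 for Pdgfra and 10.9 for Cd34, and each neighbour in this order overlapped the next. Hsd11b1 and Dpp4 were the lowest markers. In WT muscle Hsd11b1 was above Dpp4 in every library, with means of 4.34 and 2.85, whereas in mKO their values overlapped, with means of 1.77 for Hsd11b1 and 2.30 for Dpp4. Exon lengths here join all transcripts of a gene, which lowers this measure for genes with many isoforms.

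Other genes of the interstitial state fell more often than they rose with TMM. Of 18 tested, 7 fell and 3 rose, beside 18.9% and 18.2% of all genes tested. The median log2 change was -0.31, beside 0.02 for all genes. With library totals 2 fell and 6 rose, beside 1124 falling and 8159 rising of all 16650 genes. The median was then 0.16, beside 0.49 for all genes, so the list median lay below that of all genes with either scaling. The lowest p-values belonged to Lpl, Apod and G0s2. Lpl, a lipoprotein lipase gene that muscle fibres also express, averaged 190 ± 4.76 CPM in mKO and 787 ± 25.6 CPM in WT (SD, n = 3 each; edgeR adjusted p = 1.18e-07). Apod, a lipid-carrier gene, rose (42.7 CPM in mKO, 29.6 CPM in WT, edgeR adjusted p = 0.00286). G0s2, an inhibitor of fat breakdown, fell to 24.8 ± 4.66 CPM in mKO, against 58.3 ± 34.5 CPM in WT (2.35-fold lower, edgeR adjusted p = 0.00618). WT replicate 2, at 98.2 CPM, carried much of this, and without it the gene was 1.55-fold lower in mKO (edgeR adjusted p = 0.00470).

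Other genes of the adventitial state were called in either direction, in shares not far from those of all genes. Of 19 tested, 5 rose and 4 fell, beside 18.2% and 18.9% of all genes tested. The median log2 change was 0.05. With library totals 12 rose and 2 fell, beside 8159 rising and 1124 falling of all 16650 genes. Cd55, a complement regulator gene, fell to 55.6 ± 10.8 CPM in mKO, against 178 ± 25.4 CPM in WT (edgeR adjusted p = 6.55e-06). Has1, a hyaluronan synthase gene, rose to 2.86 ± 0.610 CPM in mKO, against 0.495 ± 0.0825 CPM in WT (edgeR adjusted p = 3.70e-05), and Uchl1, a deubiquitinase gene, to 5.06 CPM in mKO, against 1.11 CPM in WT (edgeR adjusted p = 7.46e-05).

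Broader mesenchymal genes were mostly not called, as were 10484 of all 16650 genes tested. Of 19 tested pan-fibroblast and progenitor genes, 3 rose, 2 fell and 14 did not pass (median log2 change 0.05). Over all genes tested 18.2% rose and 18.9% fell. With library totals 9 of the 19 rose and none fell, beside 8159 rising and 1124 falling of all 16650 genes. The homeobox gene Meox1 rose (6.66 CPM in mKO, 3.56 CPM in WT, edgeR adjusted p = 0.00151). Mfap4, a microfibril gene, rose as well (14.2 CPM in mKO, 7.32 CPM in WT, edgeR adjusted p = 0.00167), while the transporter gene Abca8a fell (175 CPM in mKO, 249 CPM in WT, edgeR adjusted p = 0.00764).

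Ligands and receptors of the PDGF pathway, through which Pdgfra signals, were called in a share near that of all genes. Of 7 tested, 2 fell and 1 rose, beside 18.9% and 18.2% of all genes tested. With library totals 4 rose and none fell, beside 8159 rising and 1124 falling of all 16650 genes. Among ligands, Pdgfa, which signals through Pdgfra, averaged 9.78 ± 0.605 CPM in mKO and 15.8 ± 1.20 CPM in WT (SD, n = 3 each; log2 change -0.69, edgeR adjusted p = 0.00105). Pdgfd, a ligand of the beta receptor, fell to 7.14 CPM in mKO, against 9.81 CPM in WT (edgeR adjusted p = 0.0372), a call that ended without any 1 library other than WT replicate 2 (edgeR adjusted p from 0.0618 to 0.157). Pdgfc, another Pdgfra ligand, averaged 2.73 CPM in mKO and 1.76 CPM in WT (edgeR adjusted p = 0.0552), and Pdgfb had 5.49 CPM in mKO and 5.63 CPM in WT. Among receptors, Pdgfrb had 32.2 CPM in mKO and 31.3 CPM in WT. The receptor-like gene Pdgfrl rose (5.04 CPM in mKO, 2.66 CPM in WT, edgeR adjusted p = 0.00608).

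Genes of activated fibroblasts were mostly higher in mKO. Of 14 tested, 11 rose and none fell, beside 18.2% and 18.9% of all genes tested. The median log2 change was 1.08, beside 0.02 for all genes. With library totals 13 rose and none fell, beside 8159 rising and 1124 falling of all 16650 genes. The median was then 1.54, beside 0.49 for all genes. Postn, the matrix protein periostin of repairing tissue, averaged 234 ± 70.0 CPM in mKO and 30.0 ± 1.06 CPM in WT (7.81-fold, edgeR adjusted p = 4.67e-07). Timp1, a metalloprotease inhibitor gene, averaged 7.66 ± 2.43 CPM in mKO and 0.679 ± 0.136 CPM in WT (11.3-fold, edgeR adjusted p = 3.04e-06). Runx1, a transcription factor gene that denervated fibres also express, averaged 36.8 ± 2.04 CPM in mKO and 4.62 ± 0.502 CPM in WT (SD, n = 3 each; edgeR adjusted p = 3.04e-08). Fap, the activated fibroblast protease gene, was named after its value was seen and had 19.9 CPM in mKO and 20.4 CPM in WT (edgeR adjusted p = 0.831).

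Fat cell genes, the other fate of these progenitors, were called no more often than all genes. Of 11 tested, 2 rose and 1 fell, beside 18.2% and 18.9% of all genes tested (median log2 change -0.03). With library totals 4 rose and none fell, beside 8159 rising and 1124 falling of all 16650 genes. The adipogenic transcription factor genes Cebpa (7.56 CPM in mKO, 3.20 CPM in WT, edgeR adjusted p = 0.000152) and Cebpb (12.8 CPM in mKO, 8.05 CPM in WT, edgeR adjusted p = 0.00509) rose. Fabp4, a fatty acid carrier of fat and endothelial cells, fell (44.2 CPM in mKO, 73.3 CPM in WT, edgeR adjusted p = 0.00155). Adipoq, the fat cell hormone adiponectin, named after its value was seen, had 10.3 CPM in mKO and 10.4 CPM in WT (edgeR adjusted p = 0.955).

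Markers of other interstitial cells were called in both directions. Over all genes tested, 18.9% fell and 18.2% rose with TMM, with a median log2 change of 0.02. With library totals 1124 of 16650 fell and 8159 rose, with a median of 0.49. Of 12 endothelial genes 10 fell with TMM, and 3 fell and 1 rose with library totals. Their median log2 change was -0.67 with TMM and -0.21 with totals. Their summed level was 259 to 289 CPM in mKO and 382 to 495 CPM in WT. Egfl7, Emcn and Kdr led by p, with log2 changes of -1.22, -0.94 and -1.31 (edgeR adjusted p from 1.21e-05 to 7.98e-05). Of 8 pericyte and smooth muscle genes 4 fell, including Rgs5, Kcnj8 and Mcam, and none rose (median -0.44, beside 0.02 for all genes). With totals 3 of the 8 fell and 2 rose (median 0.03, beside 0.49 for all genes). The sum of the 8 was 614 to 724 CPM in mKO and 983 to 1152 CPM in WT. All 10 macrophage genes rose (median 1.40; also 10 with totals), led by Cd68, C1qb and C1qa with log2 changes of 2.62, 1.97 and 1.55. Cd34 and Ly6a are expressed by endothelial cells too, and the part of these cell types in the levels of the markers was not tested.

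**Figure D4:**
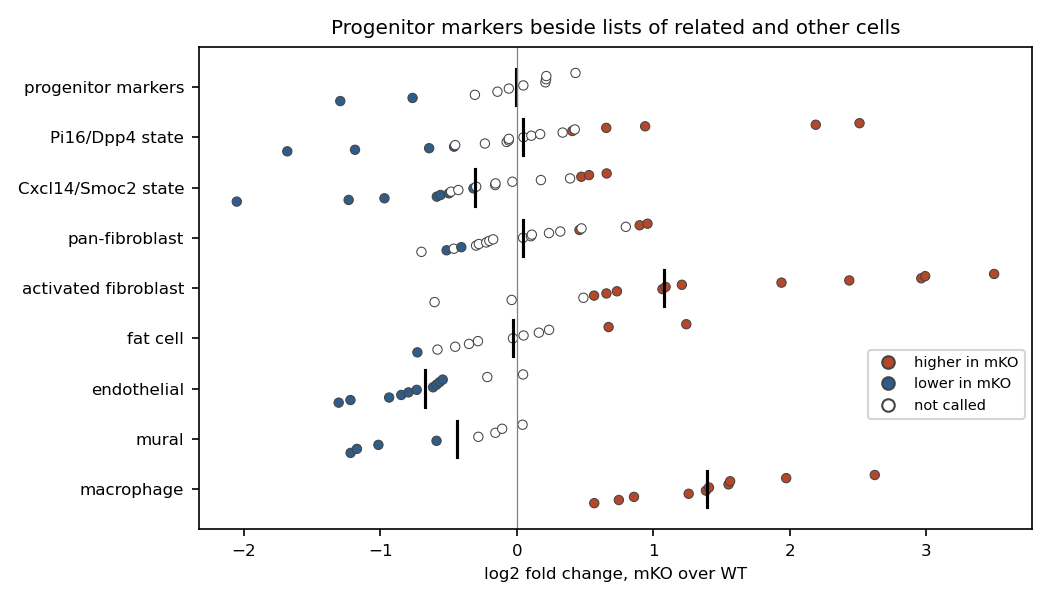
Log2 fold change, mKO over WT, of each tested gene in the progenitor markers and in lists of fibroblast states, fates and other cells of muscle; vertical bars are list medians. The progenitor markers centre at -0.01, activated fibroblast genes at 1.08, macrophage genes at 1.40 and endothelial genes at -0.67.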

How the data were processed

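Gene counts of 6 bulk RNA sequencing libraries were used, 3 mKO and 3 WT, grouped by their titles. The authors deposited raw counts per Ensembl gene, 1 table per library. Tools named in the submitters' processing notes are Trimmomatic 0.36 for trimming, the aligner STAR 2.5.2b, and featureCounts (Subread 1.5.2); the build is GRCm38. Per the labels' protocols, frozen muscle was taken up in Trizol and sequenced with a NEBNext Ultra RNA kit, a type that as named does not mark strand. No setting for strand, read pairs or multi-mapping reads is given in these sources, so overlapping genes and paralogs are uncertain.

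Of 49315 genes, 48970 matched a symbol. With edgeR 4.0.16 (R 4.3.3), a quasi-likelihood test was fitted over all 16650 genes passing its default filter, with TMM factors, group as the only term and Benjamini-Hochberg adjustment at 0.05. Standard errors and 95% intervals derive from its F statistic, without adjustment for many tests. The biological coefficient of variation was 16.1%. Replicates differed beyond sampling noise (chi-square per degree of freedom at least 20.9). The steps were tested on simulated data. Ratios to Pdgfra were compared by an exact two-sided permutation test. Spans and transcripts came from GENCODE M21, promoters from RefSeq GRCm38.p6.

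The markers and lists were chosen with earlier results of these data known. All markers are named; from each other list, up to 3 genes by lowest p, and all tested PDGF genes. Alternatives were DESeq2 1.42.0, limma-voom (limma 3.58.1), other scaling, filters and dispersion, a replicate block and leaving out each library.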

Additional observations from a re-analysis of the deposited data

How the results depend on the processing

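The number of markers that rose depended on scaling and on 1 library. With library totals 9283 genes were called in place of 6166 (87.9% of them higher, against 49.0%), with 6 markers higher and 1 lower; Cd34, Dpp4 and Clec3b turned to log2 changes of 0.41, 0.16 and 0.32. Without a low-count filter 1 marker, Ly6a, rose (edgeR adjusted p = 0.00573). Leaving out 1 library gave 4766 to 6255 genes called and always 2 markers lower, and 0 to 2 higher, the 2 being Ly6a and Cxcl14 without mKO replicate 2. Over these 6 fits the log2 change ranged from -0.037 to 0.14 for Pdgfra, -0.072 to 0.39 for Pi16 and -0.11 to 0.49 for Cxcl14, each lowest without mKO replicate 1 and highest without mKO replicate 2. It ranged from -0.17 without mKO replicate 1 to 0.029 without mKO replicate 2 for Cd34, and from -0.30 without WT replicate 2 to 0.061 without WT replicate 1 for Clec3b. No marker but Ly6a and Cxcl14 changed its call in these 6 fits. DESeq2, limma-voom, RLE factors, the stricter filter, robust dispersion and removal of mitochondrial and the 10 most abundant genes changed no marker's call or sign. The cause of each change was not tested.

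Whether the replicate numbers pair the samples is not known. Over all genes tested, same-numbered libraries had correlations of -0.01, -0.02 and 0.04 between their deviations from the group means. Not every library correlated best with its own number. Such correlations, from 3 libraries per group, cannot show that pairing is absent. Counts of markers above the group mean had the same order by replicate number in both groups. They were 9, 1 and 6 of 10 in mKO and 7, 2 and 6 of 10 in WT. With the number as a block 5519 genes were called, with 0 markers higher and 2 lower. The lowest marker, Hsd11b1, had 273 to 676 counts per library, so depth did not keep any marker below the filter; 3 libraries per group limit the precision.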

Other observations

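Of 12 tested genes of secreted factors reported from progenitors, 3 rose and 3 fell, beside 18.2% and 18.9% of all genes tested. With library totals 4 rose and none fell, beside 8159 rising and 1124 falling of all 16650 genes. Ccn4, a matricellular protein gene, had 5.16 ± 0.821 CPM in mKO and 2.17 ± 0.732 CPM in WT (SD, n = 3 each; edgeR adjusted p = 0.00175), and Bdnf, a neurotrophin gene, had 2.45 CPM in mKO and 0.831 CPM in WT (edgeR adjusted p = 0.00380). Igf1, a growth factor gene, fell to 56.1 ± 8.65 CPM in mKO, against 79.3 ± 3.28 CPM in WT (edgeR adjusted p = 0.00676).

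Tendon cell genes, which share a mesenchymal origin with the progenitors, had 2 of 8 higher and none lower, beside 18.2% and 18.9% of all genes tested. With library totals 4 were higher and none lower, beside 8159 rising and 1124 falling of all 16650 genes. The same all-gene values are the background for the other lists of this paragraph. Thbs4, a matrix protein gene, had 440 ± 16.9 CPM in mKO and 225 ± 18.7 CPM in WT (SD, n = 3 each; edgeR adjusted p = 3.15e-05), Tnmd, the tendon gene tenomodulin, had 28.2 CPM in mKO and 20.8 CPM in WT (edgeR adjusted p = 0.0214, but 0.0737 without mKO replicate 2, 0.0836 without mKO replicate 3 and 0.0901 without WT replicate 3), and Comp had 25.8 CPM in mKO and 14.4 CPM in WT (edgeR adjusted p = 0.0528, but 0.0414 without mKO replicate 1, 0.0273 without mKO replicate 3 and 0.0136 without WT replicate 2). Of 8 satellite cell genes 1 rose and 1 fell, but 4 rose and none fell with library totals. Pax7 had 2.12 CPM in mKO and 1.13 CPM in WT (edgeR adjusted p = 0.0396, but 0.0589 to 0.143 without any 1 library other than WT replicate 2), Calcr 0.514 CPM in mKO and 1.33 CPM in WT (edgeR adjusted p = 0.0213, but 0.0766 without mKO replicate 1, 0.0590 without mKO replicate 2 and 0.103 without WT replicate 3), and Cdh15 did not pass (edgeR adjusted p = 0.0667, but 0.0227 without WT replicate 1). Of 8 Schwann cell genes, Sox10, Pmp22 and Cdh19 had the lowest edgeR adjusted p, 0.266, 0.273 and 0.288; with library totals 1 of the 8 rose. Of 8 lymphocyte genes 2 passed the filter and 1, Cd4, rose (0.487 CPM in mKO, 0.148 CPM in WT, edgeR adjusted p = 0.0300); this call ended without mKO replicate 1 (0.122), mKO replicate 2 (0.0689), WT replicate 2 (0.0981) or WT replicate 3 (0.125), and the log2 change of 1.74 was 2.43 without WT replicate 1. With library totals 1 of the 2 rose as well. The leaving-out of single libraries for genes outside the marker list was added after seeing the data. Of 9 fibre genes 8 fell (6 with library totals), with Pvalb, Ckm and Myh4 at log2 changes of -1.41, -1.38 and -1.57.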
